A study of Mus musculus with 8 samples.

Results

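The serpins and the plasminogen system were followed in primary mouse aortic smooth muscle cells (MASMCs) from WT and *Hint1*-/- mice. Members were all gene symbols made of Serpin, a clade letter from a to i, a number and an optional letter, plus *Plat*, *Plau*, *Plaur*, *F3*, *Thbd*, *Tfpi*, *Procr*, *F2r* and *Anxa2*, while *Serping1* was left out. This rule found 60 of the 18533 gene symbols, and 59 are described, 50 of them serpins. A filter on low counts kept 27 of the 59 for testing, and the other 32 are described by their counts alone.

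The RNA-Seq compared 4 samples from WT mice with 4 from *Hint1*-/- mice, and all 8 had received PDGF-BB, a growth factor that drives smooth muscle cells toward a synthetic state, at 20 ng/ml for 24 hours. Samples without PDGF-BB were not analysed here, so every difference is between genotypes under the growth factor. The cells were cultured from aortas of male mice aged 4 to 6 weeks after the adventitia and endothelium had been taken off, and the deletion of *Hint1* was in the whole animal rather than in 1 cell type. The sources do not say whether the 4 samples of a genotype came from separate mice or cultures, so the p-values measure the spread between these samples, which may be technical.

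Serpins are a family of proteins that mostly inhibit serine proteases, trapping the enzyme in a covalent complex through a loop that the enzyme cuts. In the vessel wall, plasminogen activators turn plasminogen into plasmin, which dissolves fibrin and helps to remodel matrix, and serpins hold both steps in check. Tissue factor starts coagulation, and thrombin, its end protease, signals to smooth muscle cells through a receptor that it cleaves.

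The samples held 20778077 to 20888041 estimated counts each, and the 59 members took 0.714% to 0.758% of them. *Hint1* itself was at 713 to 778 counts in the *Hint1*-/- samples and 2272 to 2364 counts in WT, so the *Hint1*-/- samples were lower in every case but kept 0.321 of the WT level (35.6 ± 1.46 against 110.9 ± 1.72 CPM, SD, n = 4). The 8 smooth muscle markers summed to 1353 to 1469 CPM (counts scaled to library size) in WT and 1117 to 1207 CPM in *Hint1*-/- cells, with 5 of 7 tested genes lower and 1 higher. *Myh11* and *Cnn1*, contractile genes, fell by 1.54 and 1.12 on the log2 scale, while *Acta2*, the highest of the 8, fell by 0.51. *Smtn* rose by 0.25 (edgeR adjusted p = 9.0e-05), and *Tagln*, at -0.11, did not pass the test (edgeR adjusted p = 0.0696). By qPCR the paper reported *Acta2*, *Tagln* and *Cnn1* as higher in *Hint1*-/- MASMCs. By Western blot it also reported more of the contractile proteins α-SMA and SM22 in these cells under PDGF-BB. In the RNA-Seq counts used here, *Acta2* and *Cnn1* fell. The 10 endothelial markers summed to at most 11.3 CPM in any sample. Markers of other cells were also present and differed by genotype. Macrophage markers summed to 2482 to 2859 CPM in WT and 2014 to 2151 CPM in *Hint1*-/- cells, with 8 of 9 tested genes lower. Of that list *C1qa* and *C1qb* were near 0, at means under 1 CPM, and no marker on any of the lists was at 0 in all 8 samples. Fibroblast markers summed to 2334 to 2394 CPM and 3174 to 3369 CPM, with 3 of 8 higher and 2 lower, and Schwann cell markers to 65.7 to 71.5 CPM and 27.1 to 29.6 CPM, with 6 of 8 lower. In bulk RNA, fewer cells of a type and less RNA per cell cannot be told apart. The part that these markers' cells had in the results on the members was not tested.

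Levels of the 27 tested members spanned 542-fold in WT and 876-fold in *Hint1*-/- cells when counts were set against exon length. The first places changed hands between genotypes. In WT, *Serpinh1*, the collagen chaperone of the endoplasmic reticulum, stood at 598 ± 38.7 CPM per kilobase of exon (SD, n = 4) and *Serpinb2*, plasminogen activator inhibitor 2, at 532 ± 23.2, and their samples overlapped. In *Hint1*-/- cells the order was reversed, with *Serpinb2* at 655 to 707 CPM per kilobase above *Serpinh1* at 614 to 633 and no overlap. *Serpinf1*, which encodes a secreted serpin without protease inhibitor activity, and *Anxa2*, which encodes the plasminogen-binding annexin A2, followed in both genotypes at 282 ± 10.1 and 244 ± 9.23 CPM per kilobase in WT. Their ranges did not overlap in WT, at 268 to 290 and 231 to 252. *F3*, which encodes tissue factor, was 16th in WT and 13th in *Hint1*-/- cells. Among the 19 members with a mean of at least 1000 counts, the CV between samples was 1.34% (*Serpinb1a*) to 10.1% (*Serpine2*) in WT and 1.41% (*Serpinh1*) to 7.71% (*Plau*) in *Hint1*-/- cells.

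**Figure D1:**
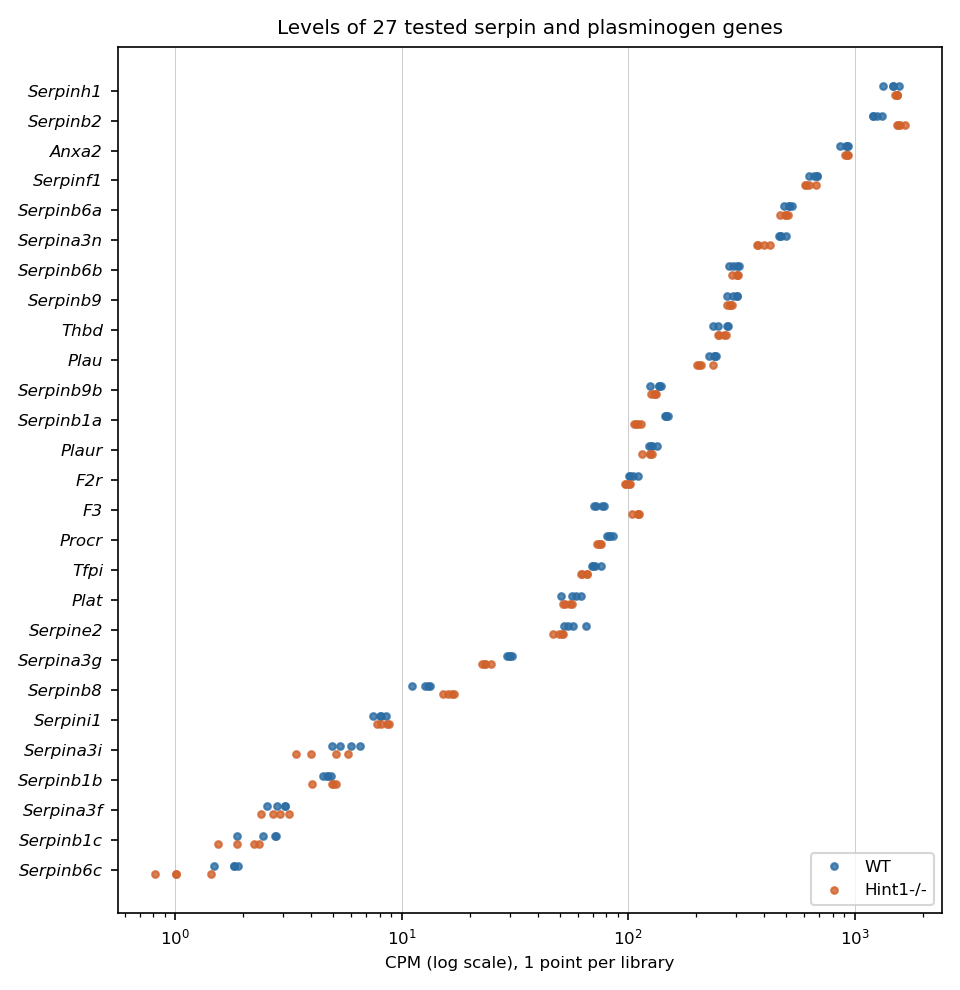
Level of each of the 27 tested serpin and plasminogen genes in every sample, in CPM on a logarithmic axis, with 1 point per sample and genes ordered by mean level. Samples of the genotypes overlap for all but 10 of the 27 genes, while *F3*, *Serpinb2* and *Serpinb8* stand higher in all 4 *Hint1*-/- samples and *Serpinb1a*, *Serpina3n* and *Serpina3g* lower.

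Between the genotypes, 11 of the 27 tested members differed, all modestly. Tissue factor rose 1.47-fold and *Serpinb2* 1.27-fold, and *Serpinb8* rose by 0.37 on the log2 scale. *Serpinb6c*, *Serpinb1a*, *Serpina3g*, *Serpina3n*, *Serpine2*, *Plau*, *Tfpi* and *Procr* fell, from 1.64-fold lower for the scarce *Serpinb6c* to 1.11-fold lower for *Tfpi* and *Procr*. Calls are edgeR quasi-likelihood tests over all 13535 genes that passed the filter, with Benjamini-Hochberg adjusted p under 0.05, and folds are *Hint1*-/- against WT.

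The 11 calls were 40.7% of the tested members, against 21.5% of all genes tested. The 3 that rose were 11.1% of members, about the background of 11.2% of all genes, and the 8 that fell were 29.6% against 10.2%. Members were sequenced more deeply than most genes. When the count was limited to genes averaging 1000 counts or more, 8 of 19 members (42.1%) and 29.3% of all such genes passed. The shares by direction and of separate ranges were not matched for depth in this way. Once a fold change over 1.5 was also asked for, *Serpinb6c* alone remained as lower, where 1.49% of all genes were called lower. No member rose past both limits in edgeR, where 1.34% of all genes did, and the number was also 0 at an unadjusted p under 0.05 with the same fold limit, and in DESeq2 and limma-voom. For 10 of the 27 members (37.0%), 3 higher and 7 lower, WT and *Hint1*-/- samples had separate ranges, against 23.0% of all genes. The median log2 fold change was -0.06 over the tested members and 0.00031 over all genes, and the members ran from -0.71 to 0.56.

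**Figure D2:**
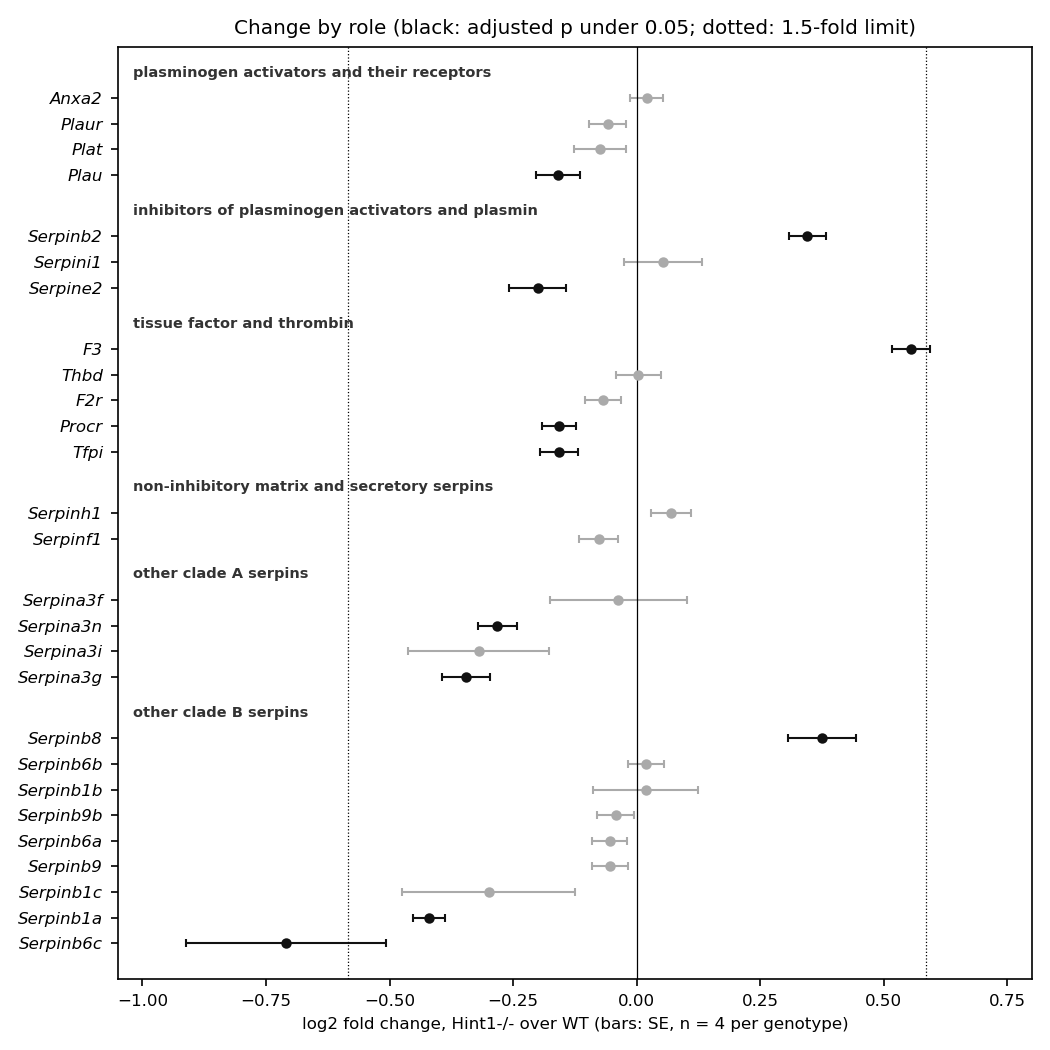
Log2 fold change of *Hint1*-/- against WT for the 27 tested members, grouped by role, as edgeR estimates with bars of 1 SE (n = 4 per genotype), black where the adjusted p was under 0.05 and grey elsewhere. Dotted lines mark the 1.5-fold limit, and only *Serpinb6c*, at -0.71, lies beyond it.

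The 3 genes with the largest rises carried a match to a loose short pattern, chosen after the rises were seen, just before their starts. RefSeq windows of 250 bases upstream of the start (GRCm38.p6, the mm10 assembly) were at hand for 23 of the 27 tested members. Each of the 23 was counted by 1 window, though *Serpinb2*, *Tfpi*, *Serpina3f*, *Serpinb1c* and *Serpinb6a* had 2. None was at hand for *Plat*, *Thbd*, *Plau* and *Serpinb1a*, of which *Plau* and *Serpinb1a* fell. The windows were searched for TGANTCA, which reads the same on both strands. Its middle base is open, so it is looser than the AP-1 element, TGAGTCA or TGACTCA. The open pattern was in 7 of the 23 windows (*Anxa2*, *F2r*, *F3*, *Plaur*, *Procr*, *Serpinb2* and *Serpinb8*) and in 6.87% of 27025 windows of the same length over all genes. The windows of *F3*, *Serpinb2* and *Serpinb8* are printed 5′ to 3′ because these genes rose together, with the matches in capitals. None of their bases lies in an annotated exon of the gene.
*F3*, chr3:121723287-121723536, plus strand: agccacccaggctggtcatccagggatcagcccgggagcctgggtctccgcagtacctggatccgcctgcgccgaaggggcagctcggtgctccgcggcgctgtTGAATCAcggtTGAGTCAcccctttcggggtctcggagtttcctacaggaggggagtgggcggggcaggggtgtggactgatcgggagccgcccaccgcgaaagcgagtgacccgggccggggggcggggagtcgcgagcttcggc
*Serpinb2*, chr1:107511173-107511422, plus strand: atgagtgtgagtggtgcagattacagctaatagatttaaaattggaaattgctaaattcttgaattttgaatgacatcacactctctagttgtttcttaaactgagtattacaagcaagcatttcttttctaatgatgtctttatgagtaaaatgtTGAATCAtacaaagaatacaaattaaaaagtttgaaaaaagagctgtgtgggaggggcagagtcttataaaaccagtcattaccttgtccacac
*Serpinb8*, chr1:107589756-107590005, plus strand: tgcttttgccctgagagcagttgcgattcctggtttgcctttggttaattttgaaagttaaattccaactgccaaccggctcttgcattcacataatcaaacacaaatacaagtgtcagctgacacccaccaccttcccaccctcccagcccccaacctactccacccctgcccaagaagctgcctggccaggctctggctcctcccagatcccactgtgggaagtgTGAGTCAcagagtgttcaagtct
*F3* held 2 copies, whose first bases were at -146 and -135 from the start, *Serpinb2* 1 copy at -94 and *Serpinb8* 1 copy at -23. The copy of *Serpinb2* and the first copy of *F3* read TGAATCA, with A at the open base. The window of *Serpinb2* thus had no match to the stricter AP-1 element. The share of all windows with the stricter element was not counted. The match did not set the risers apart from the others, since *Procr*, which fell, had a copy at -154, and *Anxa2*, *F2r* and *Plaur* did not pass the test. GCCNNNGGC, the core letters of the AP-2 element, which also read the same on both strands, was in 2 of the 23 windows (*F2r* and *Serpinb6c*) against 13.6% of all windows. TATAAA on the forward strand was in 2 (*Anxa2* and *Serpinb2*) against 8.12%. The motifs were chosen after the fold changes were seen, and a match of letters is a description of the window.

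Of the plasminogen activators and their receptors, 1 of 4 changed, near the 21.5% of all genes that did. *Plau* encodes urokinase, the activator that works at the cell surface. It measured 239.7, 245, 227 and 243 CPM in WT and 206, 209.7, 238 and 202 CPM in *Hint1*-/- cells. *Hint1*-/- replicate 3 lay inside the WT range and the other 3 below it. *Plau* fell by 0.16 ± 0.045 on the log2 scale (SE, n = 4, edgeR adjusted p = 0.0153). The call was lost when *Hint1*-/- replicate 1, 2 or 4 was left out (adjusted p = 0.0562, 0.0502 and 0.0616), with a range of 0.000426 to 0.0616 over 15 alternatives.

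*Plat*, which encodes the tissue-type activator, measured 58.8, 50.5, 56.8 and 62.0 CPM in WT and 55.6, 56.8, 51.8 and 52.6 CPM in *Hint1*-/- cells. All 4 *Hint1*-/- values lay within the WT range, and the log2 difference was -0.07 ± 0.052 (edgeR adjusted p = 0.353). *Plat* passed the test only when WT replicate 2, its lowest sample, was left out (adjusted p = 0.0442), with a range of 0.0442 to 0.741 over the alternatives. *Plaur*, the receptor that holds urokinase on the membrane, gave 124 to 135 CPM in WT and 115 to 127 CPM in *Hint1*-/- cells, with a log2 difference of -0.06 ± 0.038. *Anxa2* was among the steadiest members, at 860.1 to 939 CPM and 903 to 937 CPM and a log2 difference of 0.02 ± 0.033. Neither gene passed the test (edgeR adjusted p = 0.308 and 0.719).

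Inhibitors of the activators and of plasmin moved in both directions. Of 5 members, 3 were tested, 1 rose and 1 fell, where 11.2% of all genes tested rose and 10.2% fell. *Serpinb2*, an inhibitor of urokinase that is held largely inside the cell, measured 1324, 1252, 1212 and 1206 CPM in WT and 1556, 1662, 1590 and 1538 CPM in *Hint1*-/- cells. Every *Hint1*-/- sample was above every WT sample. The log2 difference was 0.35 ± 0.037 (edgeR adjusted p = 1.3e-06), and it stayed between 0.32 and 0.38 in all 15 alternatives.

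*Serpine2*, protease nexin-1, inhibits thrombin, urokinase and plasmin at the cell surface. It measured 57.2, 54.3, 51.9 and 65.2 CPM in WT and 49.8, 51.0, 46.6 and 51.5 CPM in *Hint1*-/- cells. The groups did not overlap, but the lowest WT and highest *Hint1*-/- samples were 51.9 and 51.5 CPM. *Serpine2* fell by 0.20 ± 0.057 on the log2 scale (edgeR adjusted p = 0.0160). Without WT replicate 4, its highest sample, the log2 difference was -0.13 (adjusted p = 0.0556), and without *Hint1*-/- replicate 3 the adjusted p was 0.0596, within a range of 0.00238 to 0.0596 over the alternatives. Neuroserpin, *Serpini1*, an inhibitor of the tissue-type activator, was at 7.48 to 8.58 CPM and 7.79 to 8.78 CPM and did not pass the test. The remaining inhibitors were hardly read. *Serpinf2*, the main plasmin inhibitor of blood, summed to 8 counts over the WT samples and 13 over the *Hint1*-/- samples, and *Serpina5*, the protein C inhibitor, to 2 and 8.

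Transcripts of inhibitor and activator were also set against each other within each sample. Per kilobase of exon, *Serpinb2* was 5.00 to 5.57 times *Plau* in WT and 6.73 to 7.99 times in *Hint1*-/- cells, so the ranges did not overlap. *Plau* over its receptor *Plaur* was 1.96 to 2.19 in WT and 1.79 to 2.11 in *Hint1*-/- cells, and *Plau* over *Plat* was 10.3 to 12.8 and 9.73 to 12.1, both with overlap. The ratios were formed after the levels had been seen and are given without a test.

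**Figure D3:**
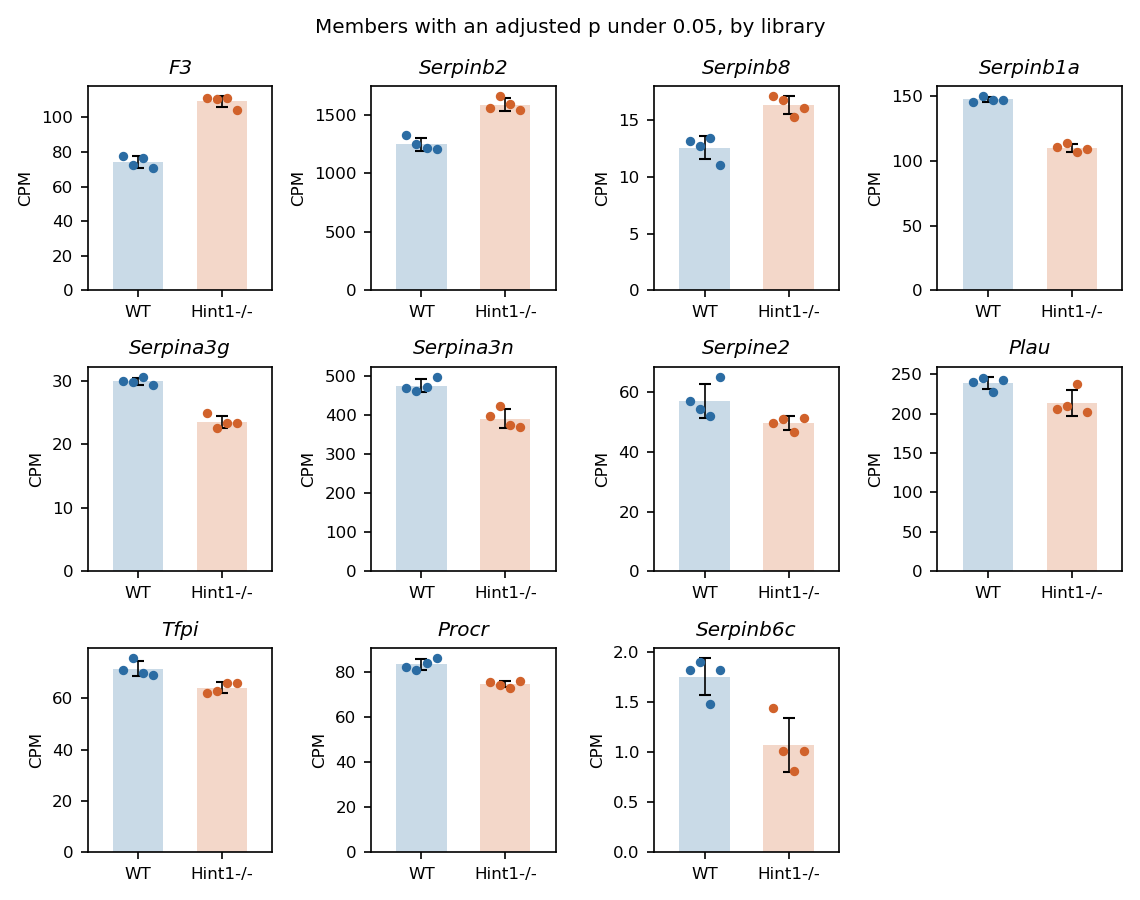
CPM of the 11 members with an adjusted p under 0.05 in each sample, with linear axes from 0, bars at the genotype mean and error bars of 1 SD (n = 4). *F3*, *Serpinb2* and *Serpinb8* show separated groups with *Hint1*-/- higher, *Plau* shows overlapping groups, and *Serpinb6c* lies under 2 CPM throughout.

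Tissue factor and the thrombin system held the largest rise. *F3* measured 77.9, 72.4, 76.5 and 70.5 CPM in WT and 111, 110.3, 111 and 105 CPM in *Hint1*-/- cells, so the groups were far apart. The log2 difference of 0.56 ± 0.038 (edgeR adjusted p = 4.6e-09) lay just inside the 1.5-fold limit. It was between 0.53 and 0.58 in all 15 alternatives and never past that limit.

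*Tfpi*, which encodes the inhibitor of the tissue factor complex, moved the other way. It measured 71.2, 75.8, 69.9 and 69.2 CPM in WT and 61.9, 62.8, 66.0 and 66.0 CPM in *Hint1*-/- cells, without overlap. *Tfpi* fell by 0.16 ± 0.039 on the log2 scale (edgeR adjusted p = 0.00676). The ratio of *F3* to *Tfpi* transcripts per kilobase was 2.07 to 2.37 in WT and 3.42 to 3.89 in *Hint1*-/- cells.

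*Procr*, the receptor that presents protein C for activation, also fell. It measured 82.3, 80.7, 83.6 and 86.1 CPM in WT and 75.5, 74.2, 72.8 and 76.0 CPM in *Hint1*-/- cells, and no samples overlapped. The fall was 0.16 ± 0.034 on the log2 scale (edgeR adjusted p = 0.00273). Its partner thrombomodulin, *Thbd*, which binds thrombin and turns it toward protein C, gave 237 to 275 CPM and 249 to 271 CPM with a log2 difference of 0.00 ± 0.045 (edgeR adjusted p = 0.975). *F2r*, the thrombin receptor on smooth muscle cells, gave 101 to 110.5 CPM in WT and 97.0 to 102 CPM in *Hint1*-/- cells, with a log2 difference of -0.07 ± 0.036 (edgeR adjusted p = 0.209). The circulating serpins that inhibit coagulation proteases were barely read. Antithrombin, *Serpinc1*, summed to 21 and 12 counts over the 4 samples of each genotype, heparin cofactor II, *Serpind1*, to 8 and 20, and *Serpina10* to 1 and 0.

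The 2 abundant serpins without inhibitory activity did not pass the test. *Serpinh1* gave 1337 to 1567 CPM in WT and 1501 to 1546 CPM in *Hint1*-/- cells, with a log2 difference of 0.07 ± 0.040 (edgeR adjusted p = 0.242). *Serpinf1* gave 631 to 684 CPM and 606 to 679 CPM, with a log2 difference of -0.08 ± 0.039 (edgeR adjusted p = 0.180). Without *Hint1*-/- replicate 1, its highest sample of that genotype, *Serpinf1* was lower at -0.11 (adjusted p = 0.0444), within a range of 0.0444 to 0.379 over the alternatives.

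The remaining serpins lay mostly in 3 gene clusters. Counts that were not whole numbers, which arise when reads are split between similar sequences, occurred in at least 1 sample for 15 of the 27 tested members. The values of single genes in the Serpinb1, Serpinb6, Serpinb9 and Serpina3 families, which had such counts in all 8 samples for every tested gene, are uncertain for that reason, and family sums are given beside them. *Serpinb8* had such counts in 7 samples and *Serpinb2* in none. A cluster of 8 member serpins lies on chr1:106861173-107610484 (mm10), one of 17 on chr12:103614786-104414329 and one of 15 on chr13:32842092-34002794.

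On chromosome 1, 2 of the 8 genes were tested and both rose, where 11.2% of all genes tested did. *Serpinb8*, an inhibitor of furin-like proteases, starts 54.5 kb beyond the end of *Serpinb2*. It measured 13.1, 12.7, 13.4 and 11.1 CPM in WT and 17.1, 16.7, 15.3 and 16.0 CPM in *Hint1*-/- cells, without overlap. The log2 difference was 0.37 ± 0.069 (edgeR adjusted p = 0.000563), on counts that the authors' tool had partly split. *Serpinb10* lies between them, and its annotated span overlaps that of *Serpinb2*. It had 24 counts in WT and 37 in *Hint1*-/- cells, which were not whole in 1 sample. Whether reads of *Serpinb2* were among them was not tested. *Serpinb12* and *Serpinb7* summed to 40 and 15 counts in WT and 21 and 11 in *Hint1*-/- cells. *Serpinb5*, *Serpinb11* and *Serpinb13* had at most 1 count per genotype.

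On chromosome 12, the clade A cluster, 4 of 17 genes were tested, all 4 had negative estimates and 2 fell. Of all 13535 genes tested, 6760 had negative estimates and 10.2% fell. *Serpina3n* encodes a secreted antichymotrypsin-like inhibitor that is known as an acute-phase protein. It measured 469.6, 463, 472 and 498 CPM in WT and 397, 422, 375 and 370.4 CPM in *Hint1*-/- cells, without overlap, and fell by 0.28 ± 0.040 on the log2 scale (edgeR adjusted p = 4.3e-05). *Serpina3g*, an intracellular relative that inhibits cathepsins, measured 30.0, 29.8, 30.6 and 29.2 CPM in WT and 24.9, 22.6, 23.4 and 23.3 CPM in *Hint1*-/- cells. Its groups were also separate, and it fell by 0.35 ± 0.048 (edgeR adjusted p = 3.2e-05). *Serpina3f* and *Serpina3i*, at 2.40 to 6.56 CPM, did not pass the test. The 9 Serpina3 genes summed to 502 to 537 CPM in WT and 401 to 454 CPM in *Hint1*-/- cells, a ratio of 0.821, and *Serpina3n* supplied 92.5% of the sum. The hepatic *Serpina1* genes were close to 0, with *Serpina1a* at 3 counts in all WT samples together and none in *Hint1*-/- cells, and *Serpina1b* and *Serpina1d* at 1 count each. The others of the cluster, *Serpina3a*, *Serpina3b*, *Serpina3c*, *Serpina3k*, *Serpina3m*, *Serpina9*, *Serpina11*, *Serpina12*, and the *Serpina5* and *Serpina10* named above, reached at most 30 counts per genotype. *Serpina7*, on another chromosome, had 1 count.

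On chromosome 13, 8 of 15 genes were tested and 2 fell, where 10.2% of all genes tested did. *Serpinb1a*, an inhibitor of neutrophil elastase and related granule proteases, measured 146, 150.1, 146 and 147 CPM in WT and 111, 114, 107 and 109 CPM in *Hint1*-/- cells. The groups were far apart beside a CV of 1.34% in WT, and *Serpinb1a* fell by 0.42 ± 0.032 on the log2 scale (edgeR adjusted p = 2.2e-08). The 3 Serpinb1 genes together gave a ratio of 0.756, with 94.9% of the sum from *Serpinb1a*. Of the 9 tested macrophage markers, 8 fell, by 0.25 (*Cd14*) to 0.44 (*Fcer1g*) on the same scale, and *C1qb* did not pass the test. The part of macrophages in the fall of *Serpinb1a*, or in the result of any other member, higher or lower, was not tested.

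*Serpinb6c* had the largest fold of all members and the fewest counts of those called. It had 38, 40, 31 and 38 counts in the WT samples and 30, 21, 17 and 21 in the *Hint1*-/- samples, and the groups were separated by 1 count. The fall was 0.71 ± 0.20 on the log2 scale (edgeR adjusted p = 0.0165). The call was lost in DESeq2 (adjusted p = 0.0571) and without *Hint1*-/- replicate 3 (0.0566), and it ran from 0.00710 to 0.0571 over 15 alternatives. The whole Serpinb6 family, led by *Serpinb6a*, an inhibitor of cathepsin G, and *Serpinb6b*, summed to 792 to 827 CPM in WT and 755 to 815 CPM in *Hint1*-/- cells, a ratio of 0.981. The Serpinb9 family, named for the granzyme B inhibitor *Serpinb9*, summed to 399 to 443 CPM and 400.3 to 422 CPM, a ratio of 0.966. *Serpinb1b*, *Serpinb1c*, *Serpinb6a*, *Serpinb6b*, *Serpinb9* and *Serpinb9b* did not pass the test, with edgeR adjusted p from 0.250 to 0.927.

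**Figure D4:**
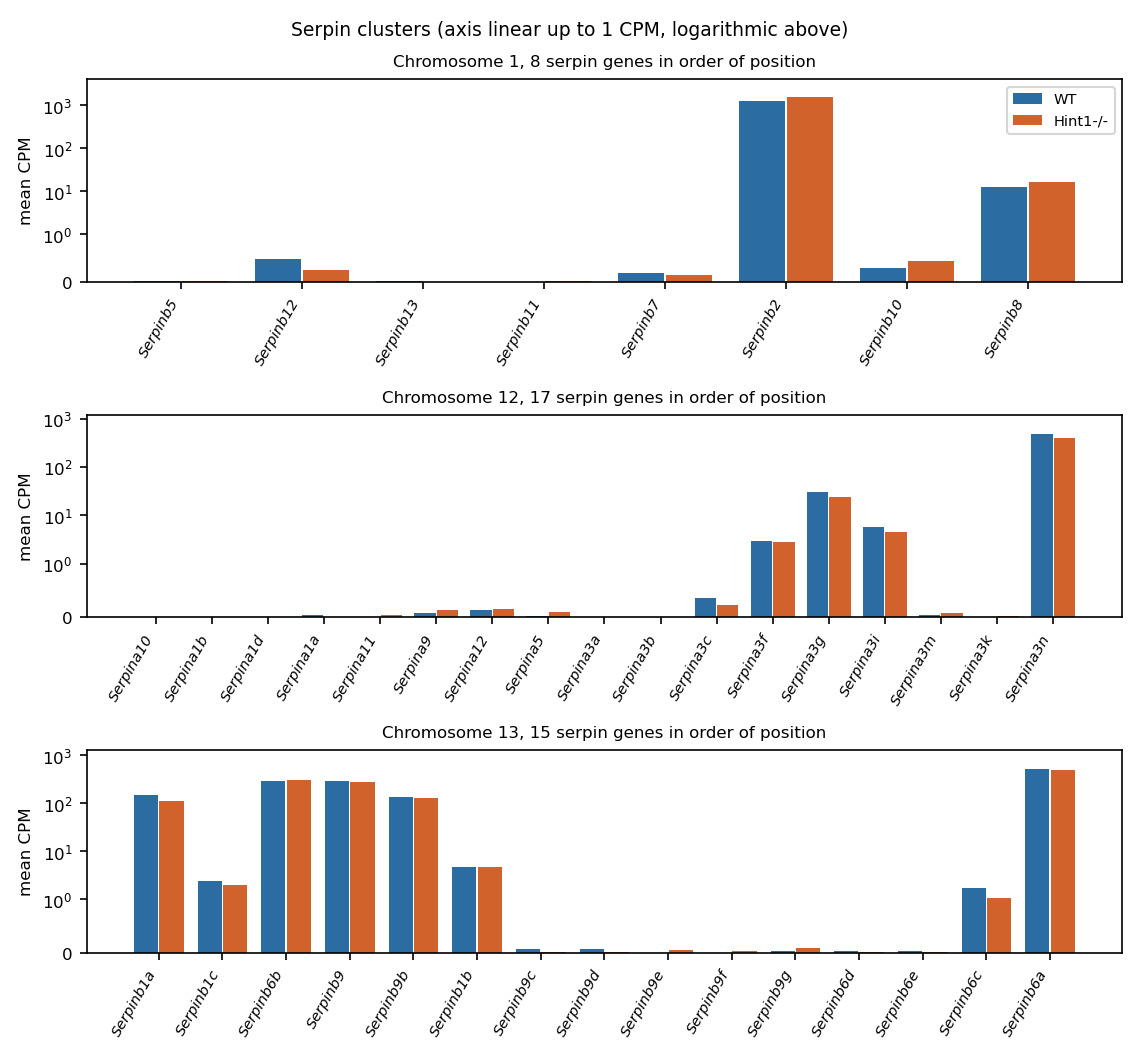
Mean CPM in WT and *Hint1*-/- cells of the member serpins in the 3 clusters, in the order of their positions (spacing not to scale), on an axis that is linear up to 1 CPM and logarithmic above, with n = 4 per genotype and no error bars. Each cluster holds both abundant genes and genes near 0, as *Serpinb2* and *Serpinb10* on chromosome 1.

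The copies of the chromosome 13 cluster that were under the filter, *Serpinb6d*, *Serpinb6e*, *Serpinb9c*, *Serpinb9d*, *Serpinb9e*, *Serpinb9f* and *Serpinb9g*, had at most 7 counts per genotype, and *Serpinb9h*, for which no position was assigned, had 1. *Serpine3*, the last of the untested members, had 8 and 4. Over all 32 untested members the highest value in any sample was 14 counts, 20 had fewer than 10 counts over the 8 samples together, and none was at 0 in every sample. No difference between genotypes was tested for these genes.

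Other genes of the plasminogen and coagulation pathways were examined as a list of 36. *Plg*, which encodes plasminogen, *Fga* and *Fgg* were not among the gene symbols, so 33 were analysed and 19 tested. At an adjusted p under 0.05, 7 rose and 2 fell, where 11.2% of all genes rose and 10.2% fell. Past both limits 2 rose, *F5* and *Klkb1*, where 1.34% of all genes did, and none fell. *F5*, coagulation factor V, measured 1.97, 2.33, 2.44 and 3.74 CPM in WT and 4.87, 5.17, 4.13 and 4.72 CPM in *Hint1*-/- cells, without overlap. The log2 difference was 0.85 ± 0.16 (edgeR adjusted p = 0.000693). *Klkb1*, plasma prekallikrein, had only 8 to 18 counts in a WT sample and 22 to 40 in a *Hint1*-/- sample, with a log2 difference of 1.43 ± 0.27 (edgeR adjusted p = 0.000863).

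The remaining 7 genes of the list with an adjusted p under 0.05 changed little. *Lrp1*, *Vldlr* and *Lrp8* encode related receptors of the lipoprotein receptor family. *Lrp1* rose by 0.16 ± 0.048, *Vldlr* by 0.22 ± 0.049 and *Lrp8* by 0.18 ± 0.053 on the log2 scale (edgeR adjusted p = 0.0200, 0.00352 and 0.0196), and the samples of *Lrp8* overlapped between genotypes. *S100a10*, which forms the cell surface tetramer with annexin A2, fell by 0.18 ± 0.041 (edgeR adjusted p = 0.00300) while *Anxa2* did not pass the test. *Eno1*, a glycolytic enzyme that also binds plasminogen at the cell surface, rose by 0.31 ± 0.033 (edgeR adjusted p = 1.5e-06), and *Lman1*, the cargo receptor for factor V secretion, by 0.11 ± 0.030 (edgeR adjusted p = 0.00956). *F2rl1*, the receptor for trypsin-like proteases that is related to *F2r*, fell by 0.45 ± 0.15 (edgeR adjusted p = 0.0423) at 37 to 70 counts a sample.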

How the data were processed

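The authors sequenced RNA of 4 WT and 4 *Hint1*-/- samples of PDGF-BB-treated MASMCs on a BGISEQ-500. The paper's methods name HISAT2 and mm10, and the submitters' processing notes name Bowtie2, RSEM 1.3.1, DESeq2 1.4.5 and mm10. The files hold deposited expected counts (estimated counts) per gene symbol and sample without normalization. Reads shared by similar genes were split, so counts of close paralogs are uncertain. Strand use in counting was not given in the sources used here.

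Counts were rounded to whole numbers, filtered with filterByExpr, scaled by TMM (factors 0.993 to 1.01) and tested across all genes with glmQLFit and glmQLFTest in edgeR 4.0.16 (R 4.3.3, limma 3.58.1, DESeq2 1.42.0, Python 3.11.15), two-sided, in a model of genotype alone. Calls required a Benjamini-Hochberg adjusted p under 0.05, with or without a fold change over 1.5. CPM are TMM-scaled. Levels per kilobase used the union of exons in GENCODE M21, in which 58 of 59 members had a position. The scripts were tested on simulated data. No molecular identifiers are described, so copies made by amplification could not be told apart from separate molecules.

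Of the 60 members by rule, 1 is not reported here and was left out of all counts of members, though it stayed in the fit. Members, gene lists and markers were chosen with earlier results of these data known. Promoter motifs, family sums and ratios were chosen after the values were seen. The rule for named genes took every called member, the 9 members that are not serpins, *Serpine2*, *Serpinf1*, *Serpinh1*, the 5 highest members per length and pathway genes past both limits. The other pathway genes with an adjusted p under 0.05, the markers and the members named only by counts or ranges were added after their values were seen. Alternatives were other scalings (RLE, upper quartile), no filter or at least 10 counts in every sample, DESeq2, limma-voom, glmTreat, a replicate block and leaving out each sample. Between samples of a genotype, chi-square per gene was 2.10 to 5.47, above sampling noise, so no pair looked like 1 library deposited again, which does not show that samples came from separate cultures or mice.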

Additional observations from a re-analysis of the deposited data

Results flagged for a closer look

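Sets of 4 samples were examined on the log2 CPM scale for 1 value standing apart (Dixon's ratio of gap to range above its 95% critical value), and 3 of 60 were found, where chance gives about 1 in 20, or 3. *F3* was low in *Hint1*-/- replicate 4 (ratio 0.859), at a log2 CPM of 6.71 (2170 counts) beside 6.79 to 6.80 (2283 to 2308 counts) in the other 3 samples. *Serpinh1* was low in the same sample (ratio 0.884), at 10.55 (31162 counts) beside 10.59 (31945 to 32157 counts). *Serpinb1b* was low in *Hint1*-/- replicate 3 (ratio 0.831), at 2.05 (84 counts) beside 2.32 to 2.38 (102 to 106 counts). These are ratios of log values, and the ratios of the raw counts differ from them.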

How the results depend on the processing

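No member rose past both limits under any alternative. The 1 member lower past both limits, *Serpinb6c*, became 0 with DESeq2 and with glmTreat against a 1.5-fold change, and ranged from 0 to 1 when single samples were left out (0 without *Hint1*-/- replicate 3). The other pathway genes past both limits went from 2 to 1 when at least 10 counts were required in every sample, which removes *Klkb1*, and to 0 with glmTreat, and stayed at 2 without any single sample. Members with an adjusted p under 0.05 numbered 9 to 12 when single samples were left out and 10 with DESeq2, against 11. Over 20 named genes and their alternatives, 290 of 299 values kept their side of the threshold, 7 lost the call and 2 gained it. No called gene changed direction, while 7 values of genes that were not called did (6 of *Thbd*, 1 of *Anxa2*), all near 0. The genes were *Serpine2*, *Plau* and *Serpinb6c* for losses and *Plat* and *Serpinf1* for gains. The replicate numbers did not pair the samples (correlations of -0.045 to 0.0814 for equal numbers and -0.0704 to 0.130 for unequal ones), and the replicate block also gave 11 calls and changed none among the named genes. The cause of these shifts was not tested. Members under the filter had at most 14 counts in a sample and were not tested.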
